A study of Mus musculus with 4 samples.

Results

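The cells described here carried the highest share of *Myh11*, *Actg2* and *Cnn1* transcripts in 4 single-cell RNA sequencing libraries of cultured mouse adipose cells. *Myh11* encodes smooth muscle myosin heavy chain, *Actg2* the gamma actin of smooth muscle, and *Cnn1* the actin-binding protein calponin 1. Cells were chosen by the summed unique molecular identifiers (UMIs, sequence tags by which copies of 1 RNA molecule are counted once) of the 3 genes divided by all UMIs of the cell. The top 10% of each library by this ratio are called high cells, and the cells of the same library at or below its median ratio are called low cells. There were 2733 high cells and 17275 low cells among 28262 cells with 5000 to 75000 UMIs, 200 to 7500 genes and under 10% mitochondrial UMIs.

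The high cells numbered 671 of 7629 cells in iWAT_DFAT, 646 of 6464 in eWAT_DFAT, 742 of 7424 in iWAT_SVF and 674 of 6745 in eWAT_SVF, and the low cells 6958, 3232, 3712 and 3373. DFAT cells are dedifferentiated fat cells, obtained by letting mature adipocytes lose their lipid in ceiling culture. SVF cells were grown from the stromal vascular fraction, which is the tissue without its adipocytes. They came from inguinal (iWAT) or epididymal (eWAT) white fat of male C57BL/6J mice on a chow diet. Age and the number of mice behind a library are not given in the sources used here. All 4 groups were thus cultured, each was 1 library, and differences between groups have no replicate check.

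Smooth muscle cells contract through actin and myosin filaments that are anchored to dense bodies and regulated by myosin light chain kinase and by actin-binding proteins. Many of their contractile genes are controlled by serum response factor (SRF) with its partner myocardin. In white fat these genes mark the muscle layer of vessels, while adipose stromal cells that become contractile in culture (myofibroblasts) can also express part of the programme.

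The ratio had no gap at the limit in eWAT_DFAT, iWAT_SVF and eWAT_SVF, and the high cells are described here as the upper range of a score. Since the limit is set by rank, it cannot show whether a separate class lies among them. Levels are given as CPM, the usual scaling of counts to a common total, here to all UMIs of the cell or group of cells. The lowest high cell was at 17.9, 714.6, 1746.07 and 3461.8 CPM in iWAT_DFAT, eWAT_DFAT, iWAT_SVF and eWAT_SVF, the order used for every series of 4 values. The highest cell just outside was at 0, 714.3, 1746.04 and 3460.7 CPM. Within 5% of the limit lay 4, 40, 57 and 55 high cells and 0, 49, 47 and 58 cells outside it. The median over all cells was 0, 65.2, 346 and 704 CPM and that of the high cells 52.9, 1084, 2483 and 4948 CPM. The median high cell of iWAT_DFAT thus lay below the median of all cells in each of the other libraries.

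**Figure D1:**
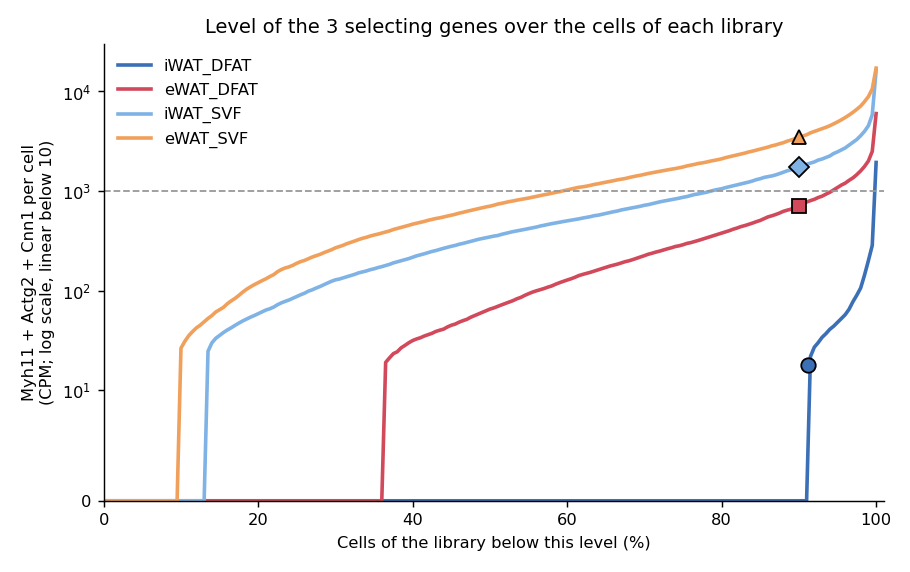
CPM of *Myh11*, *Actg2* and *Cnn1* together in each cell (vertical axis, log scale) against the percent of cells of the library ranked by it (horizontal axis), with a marker at the lowest high cell of each library and a dashed line at 1000 CPM. The 4 curves lie apart, and the marker sits at 17.9 CPM in iWAT_DFAT and at 3462 CPM in eWAT_SVF.

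In iWAT_DFAT the rule reached cells with almost no signal. There 91.2% of cells had no UMI of the 3 genes, so that the top 10% would be 763 cells but only 671 had any. The remaining 92 places were tied at 0 and were not filled, and the low cells are all other cells of that library. Of its high cells, 379 (56.5%) were chosen on a single UMI, and the median was 1 UMI of the 3 genes against 34, 71 and 159.5 in the other libraries. All 3 genes were detected in 10 (1.49%), 443 (68.6%), 572 (77.1%) and 658 (97.6%) of the high cells. Since few high cells of iWAT_DFAT held all 3 genes, although other contractile genes were higher in them (given further on), the cells are named here by the rule alone.

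The high cells were deeper than the low cells, with a median of 27540, 30384, 28054.5 and 30876 UMIs against 21657, 26040, 22931 and 25187, and their median mitochondrial share was 2.91, 1.69, 2.04 and 2.06% against 3.14, 2.07, 2.26 and 2.36%. A library held 211396227 to 242282812 UMIs in all. Droplets with at most 100 UMIs, which sample free RNA, held the 3 genes at 9.66, 268, 790 and 1647 CPM. Cells with at least 3 detected endothelial genes, which should lack the 3 genes, held them at 0, 125, 131 and 125 CPM. In these 20, 135, 41 and 124 cells a UMI of the 3 genes was seen in 0 of 20 (which allows up to 15%), 34.1, 31.7 and 31.5%, at a median depth of 17487, 11252, 16075 and 14630.5 UMIs. The low cells were at 0, 12.7, 122 and 260 CPM and the high cells at 98.5, 1280, 2931 and 5722 CPM. The ranking itself set these levels, and its lower limit for a high cell was above the free RNA in every library, so the values are no check against free RNA. Doublets were kept. An alternative that took out the highest Scrublet doublet scores, a fixed 0.8% of cells per 1000 cells, removed 10.7, 4.95, 5.12 and 3.56% of the high cells against 6.11, 5.17, 5.94 and 5.40% of all cells and 5.66, 3.62, 4.23 and 4.86% of the low cells. Pairs of libraries shared 13 to 20 cell barcodes, none of them among high cells.

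The 3 selecting genes lie on different chromosomes of the mouse genome (mm10): *Myh11* at chr16:14194535-14291372, minus strand, *Actg2* at chr6:83512905-83536265, minus strand, and *Cnn1* at chr9:22099216-22109630, plus strand. By the study's methods introns were counted too, so that counts cover whole genes. For iWAT_SVF this is unsure, since its file header names another version of the counting software. By the choice itself *Myh11* was at 7.69 against 0 CPM in iWAT_DFAT, 314 against 2.73 in eWAT_DFAT, 295 against 4.26 in iWAT_SVF and 941 against 28.9 in eWAT_SVF. *Actg2* was at 42.7 against 0 CPM in iWAT_DFAT, 479.9 against 3.28 in eWAT_DFAT, 1703 against 39.8 in iWAT_SVF and 3290.1 against 62.2 in eWAT_SVF. For *Cnn1* the levels were 48.1 against 0 CPM in iWAT_DFAT, 486 against 6.72 in eWAT_DFAT, 933 against 78.1 in iWAT_SVF and 1490.4 against 169 in eWAT_SVF. These values chose the cells and are a description only.

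The makeup of the ratio differed between libraries. *Actg2* gave 43.3, 37.5, 58.1 and 57.5% of the 3-gene UMIs of the high cells, *Cnn1* gave 48.8, 38.0, 31.9 and 26.0%, and *Myh11* gave 7.81, 24.5, 10.1 and 16.4%. *Actg2* was the highest of the 3 genes in 34.1, 43.7, 75.7 and 81.5% of the high cells. A UMI of *Myh11*, the myosin that defines smooth muscle, was detected in 13.6, 82.4, 79.2 and 98.96% of them.

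To read each selecting gene outside the choice, cells were ranked again by the other 2 genes. *Myh11*, left out of the choice, was at 3.55 against 0.518 CPM in iWAT_DFAT, 232 against 18.8 in eWAT_DFAT, 242 against 7.91 in iWAT_SVF and 803 against 52.1 in eWAT_SVF. The log2 ratios of high to low cells were 2.78 (2.28 to 3.26), 3.62 (3.54 to 3.71), 4.94 (4.83 to 5.05) and 3.95 (3.90 to 3.99), where the bracketed 95% intervals are exact and, like all intervals here, cover counting error only. *Actg2*, left out in turn, was at 31.5 against 2.24 CPM in iWAT_DFAT, 337 against 23.7 in eWAT_DFAT, 1059 against 116 in iWAT_SVF and 2214 against 155 in eWAT_SVF, with log2 ratios of 3.82 (3.62 to 4.02), 3.83 (3.76 to 3.90), 3.19 (3.16 to 3.23) and 3.84 (3.81 to 3.86). *Cnn1*, left out, was at 39.96 against 2.98 CPM in iWAT_DFAT, 369 against 37.3 in eWAT_DFAT, 767 against 165 in iWAT_SVF and 1378 against 249 in eWAT_SVF, with log2 ratios of 3.75 (3.56 to 3.94), 3.31 (3.25 to 3.37), 2.22 (2.19 to 2.25) and 2.47 (2.45 to 2.50). In every library each gene was thus higher in cells that the other 2 had picked, by 4.65-fold or more. Of the high cells, 54.2 to 91.8% were picked again, but some overlap is built in, since the 2 genes are part of the first ratio. In iWAT_DFAT every cell picked by 2 genes was a high cell already. The 3 genes also share depth and free RNA within a cell, and the part of these in the ratios was not tested.

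**Figure D2:**
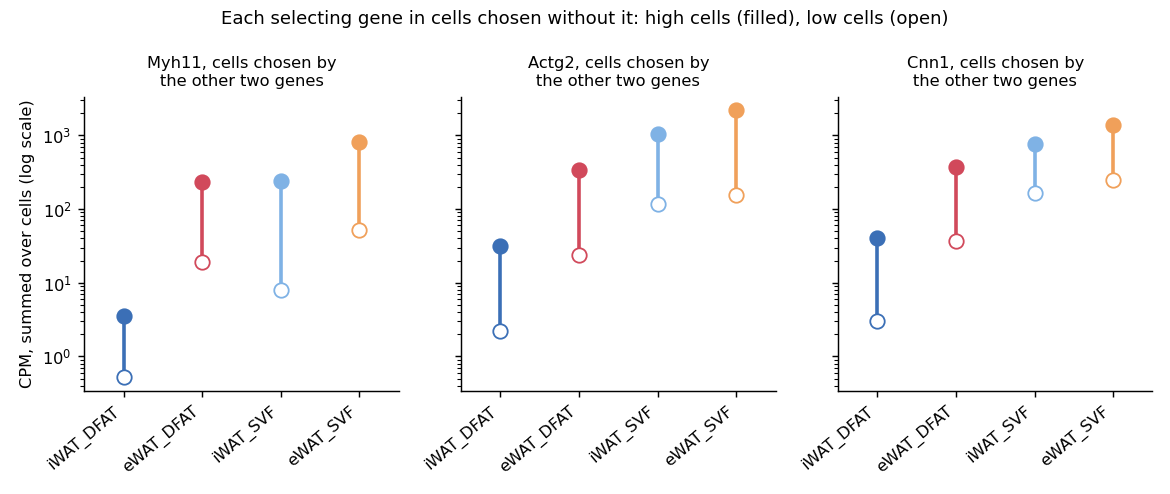
CPM (log scale) of *Myh11*, *Actg2* and *Cnn1* in cells ranked by the other 2 genes, with filled points for the top 10% and open points for cells at or below the median ratio, by library. Each filled point lies above its open point, from 3.55 against 0.518 CPM for *Myh11* in iWAT_DFAT to 2214 against 155 CPM for *Actg2* in eWAT_SVF.

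A second reading ranked the cells on a random portion of their UMIs and summed the rest. In the UMIs not used, the 3 genes together were at 100.4 against 3.07 CPM in iWAT_DFAT, 1227 against 29.7 in eWAT_DFAT, 2840 against 152 in iWAT_SVF and 5640 against 290 in eWAT_SVF. A UMI was seen again in 45.3% of the cells so chosen in iWAT_DFAT, but in 99.1, 99.9 and 100% in the other libraries. In the low cells of this reading it was seen in 2.98, 24.1, 60.6 and 71.3%.

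Since the top 10% is fixed in each library, levels were set side by side by a fixed limit. Cells at 1000 or more CPM of the 3 genes were 3 of iWAT_DFAT (0.0393%, exact Clopper-Pearson interval 0.00811 to 0.115), 365 of eWAT_DFAT (5.65%, 5.10 to 6.24), 1590 of iWAT_SVF (21.4%, 20.5 to 22.4) and 2741 of eWAT_SVF (40.6%, 39.5 to 41.8). Each interval covers the counting of cells in 1 library and says nothing of the spread between cultures, so the order is one of these 4 libraries. With each cell thinned to 5000 UMIs the shares were 0.0655, 7.87, 24.9 and 43.1%, in the same order. At the lower limit of 200 CPM they were 1.01, 31.9, 61.5 and 74.1%, and at 5000 CPM they were 0, 0.0309, 0.754 and 4.95%. The free RNA of the 4 libraries had the same order of 3-gene levels, and its part in the order was not tested.

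The contractile list held 30 genes beside the 3 that chose the cells, and ratios given from here on are log2 ratios of high to low cells. Of those at 5 CPM or more in either group, 9 of 25 were at least 2-fold higher in the high cells of iWAT_DFAT, 20 of 29 in eWAT_DFAT, 15 of 26 in iWAT_SVF and 20 of 30 in eWAT_SVF. With all other cells as comparison in place of the low cells, the count was 12 in eWAT_DFAT, 8 in iWAT_SVF and 14 in eWAT_SVF. The shares of all genes were then 1.28, 0.755 and 1.13%. Against the low cells, 0.600, 2.30, 1.26 and 2.04% of all genes at this level were at least 2-fold higher and 0.442, 3.65, 2.18 and 4.54% at least 2-fold lower. The cells were chosen on this same contrast, so nothing is read from these counts beyond the values. The median log2 ratio of the list was 0.66, 1.20, 1.31 and 1.56, against -0.01, -0.06, -0.11 and -0.17 over all genes. Both SVF medians of all genes lie more than 0.1 below 0, so small negative ratios there are close to the shift of all genes.

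Actins and actin-binding proteins were among the most abundant genes that differed. *Acta2*, the alpha actin of smooth muscle and of myofibroblasts, was at 1605 against 251 CPM in iWAT_DFAT, 7675 against 1092 in eWAT_DFAT, 15816 against 5606 in iWAT_SVF and 20128 against 4526 in eWAT_SVF. The log2 ratios were 2.67 (2.65 to 2.70), 2.81 (2.80 to 2.82), 1.496 (1.49 to 1.502) and 2.15 (2.15 to 2.16). *Tagln*, an actin-binding protein also called SM22 alpha, was at 1261 against 160.4 CPM in iWAT_DFAT, 8123 against 1644 in eWAT_DFAT, 7451 against 2862 in iWAT_SVF and 12246 against 4041 in eWAT_SVF, with ratios of 2.98, 2.31, 1.38 and 1.60. The low cells of both SVF libraries thus held less *Acta2* than the high cells of eWAT_DFAT, yet more than the high cells of iWAT_DFAT. Of the tropomyosins that line actin filaments, *Tpm2* was at 869.8 against 380.1 CPM in iWAT_DFAT, 2679 against 1084 in eWAT_DFAT, 3684 against 1387 in iWAT_SVF and 5584 against 1884 in eWAT_SVF, and *Tpm1* had ratios of 0.67, 1.20, 1.29 and 1.83.

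Myosin light chains and their kinase followed. *Myl9*, the regulatory light chain phosphorylated in contraction, was at 208 against 38.2 CPM in iWAT_DFAT, 935 against 179.8 in eWAT_DFAT, 1368 against 497 in iWAT_SVF and 2050.1 against 616 in eWAT_SVF, with ratios of 2.44, 2.38, 1.46 and 1.73. Its kinase *Mylk* was at 20.6 against 8.19 CPM in iWAT_DFAT, 472 against 59.8 in eWAT_DFAT, 576 against 83.0 in iWAT_SVF and 1425 against 347 in eWAT_SVF, with ratios of 1.33 (1.17 to 1.497), 2.98 (2.93 to 3.03), 2.80 (2.75 to 2.84) and 2.04 (2.01 to 2.06). The essential light chain *Myl6*, which many cells express, had smaller ratios of 0.45, 0.61, 0.54 and 0.60. *Lmod1*, a leiomodin that starts new actin filaments in smooth muscle, was at 45.3 against 7.18 CPM in iWAT_DFAT, 275 against 49.0 in eWAT_DFAT, 178 against 43.8 in iWAT_SVF and 409 against 106 in eWAT_SVF, with ratios of 2.66, 2.49, 2.02 and 1.95.

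Further genes of the list encode proteins that hold or link actin filaments. *Ldb3*, a PDZ and LIM protein that binds alpha-actinin, had ratios of 1.40, 1.19, 2.24 and 2.17, and *Nexn*, an actin filament protein, 1.90, 2.14, 1.35 and 1.72. *Csrp1*, a LIM protein of smooth muscle, was at 154 against 92.5 CPM in iWAT_DFAT, 418 against 111 in eWAT_DFAT, 661 against 169 in iWAT_SVF and 1338 against 356 in eWAT_SVF. The calponin *Cnn2*, filamin *Flna* and caldesmon *Cald1*, which non-muscle cells also use, had ratios of 0.26 to 1.09. *Vcl*, encoding vinculin, had a negative ratio (-0.17) in iWAT_DFAT and ratios of 0.70 to 0.73 in the others.

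9 genes of the list were at least 2-fold higher in all 4 libraries, among them *Acta2*, *Tagln*, *Myl9*, *Tpm2*, *Mylk*, *Lmod1*, *Ldb3* and *Nexn*. Of 24 measured in all 4, 22 had an interval above 0 in every library, and *Vcl* and *Prkg1* did not. Of all 9214 genes measured in all 4, 5.32% had such an interval in each, 0.217% were at least 2-fold higher in each and 0.0217% at least 2-fold lower. With all other cells as comparison, the ratios in iWAT_SVF were 0.9998 for *Acta2* and 0.95 for *Tagln*, just under 2-fold. *Prkg1*, the kinase that relaxes smooth muscle downstream of cyclic GMP, had ratios of 0.66, 0.85, 0.40 and -0.02, the last of which becomes positive when centred on the median of all genes.

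Other genes of mature smooth muscle separated the libraries. *Des*, the muscle intermediate filament desmin, was at 2.37 against 2.48 CPM in iWAT_DFAT, 73.0 against 37.6 in eWAT_DFAT, 9.76 against 3.87 in iWAT_SVF and 681 against 127 in eWAT_SVF. It was thus 5.37-fold higher in the high cells of eWAT_SVF, had a ratio of -0.06 in iWAT_DFAT, which was 1.23 when cells were thinned to 5000 UMIs and changed sign in other alternatives too, and in iWAT_SVF was under 10 CPM in both groups. *Kcnmb1*, the potassium channel subunit that tunes vascular tone, was at 12.4 against 1.85 CPM in eWAT_DFAT and 14.1 against 0.779 CPM in eWAT_SVF, and below 5 CPM in both inguinal libraries. *Sncg*, a synuclein listed with smooth muscle markers, was lower in the high cells of iWAT_DFAT (12.8 against 29.8 CPM), eWAT_DFAT (1.35 against 13.1 CPM) and eWAT_SVF (1.42 against 6.33 CPM).

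**Figure D3:**
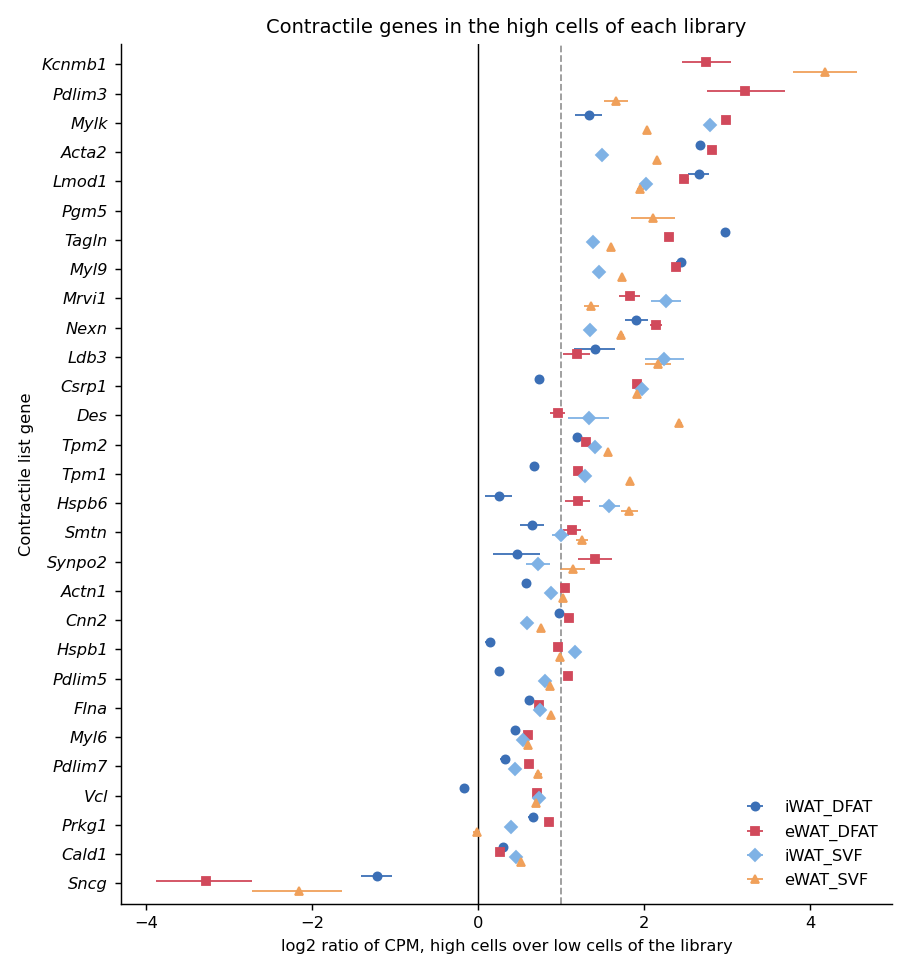
Log2 ratio of high to low cells for the genes of the contractile list reported here (vertical axis), by library, with exact 95% intervals of counting error and a dashed line at 1 (2-fold). *Acta2*, *Tagln* and *Myl9* lie to the right of the dashed line in all 4 libraries, and *Des* runs from 0.96 in eWAT_DFAT to 2.43 in eWAT_SVF, while values under 5 CPM in both groups, such as *Des* in iWAT_DFAT, are not drawn.

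Since SRF binds the CArG box, the promoters of contractile genes were searched for it. RefSeq sequences (GRCm38.p6) from 250 bases before to 50 after the start were at hand for 28 of the 33 contractile and selecting genes, and not for *Myh11*, *Actg2* and *Tagln* among others. The search took only the strict consensus, CC, then 6 bases of A or T, then GG, which reads alike on both strands. Such a CArG box lay in 5 of these 28 genes (17.9%), namely *Cnn2*, *Ldb3*, *Myl6*, *Myl9* and *Vcl*. Of all 27025 genes with a promoter, 488 (1.81%) held one. Of the 9 genes at least 2-fold higher in all 4 libraries, 6 had a promoter and 2 of these, *Myl9* and *Ldb3*, a match. The first base of the match lay 161 bases before the start of *Myl9*, and for *Ldb3*, which has 2 listed starts, 109 bases before one, whose window is shown, and 35 before the other. A match is a description of the letters, and its absence says nothing of SRF. The windows of the selecting gene *Cnn1* (chr9:22099003-22099302, plus strand) and of *Acta2* (chr19:34255324-34255623, minus strand), without a match, are printed beside those of *Myl9* (chr2:156775214-156775513, plus strand) and *Ldb3* (chr14:34588558-34588857, minus strand), with the CArG box in capitals.
Cnn1: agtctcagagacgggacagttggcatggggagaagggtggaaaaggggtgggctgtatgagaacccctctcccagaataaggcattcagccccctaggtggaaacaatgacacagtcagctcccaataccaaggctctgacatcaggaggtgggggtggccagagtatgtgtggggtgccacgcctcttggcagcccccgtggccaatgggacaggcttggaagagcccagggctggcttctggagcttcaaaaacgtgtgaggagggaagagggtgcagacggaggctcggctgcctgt
Acta2: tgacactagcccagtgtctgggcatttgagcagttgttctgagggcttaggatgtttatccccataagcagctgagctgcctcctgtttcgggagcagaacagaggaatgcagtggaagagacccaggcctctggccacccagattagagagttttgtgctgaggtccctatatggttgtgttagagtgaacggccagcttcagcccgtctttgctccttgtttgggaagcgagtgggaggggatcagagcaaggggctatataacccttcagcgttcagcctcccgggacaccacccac
Myl9: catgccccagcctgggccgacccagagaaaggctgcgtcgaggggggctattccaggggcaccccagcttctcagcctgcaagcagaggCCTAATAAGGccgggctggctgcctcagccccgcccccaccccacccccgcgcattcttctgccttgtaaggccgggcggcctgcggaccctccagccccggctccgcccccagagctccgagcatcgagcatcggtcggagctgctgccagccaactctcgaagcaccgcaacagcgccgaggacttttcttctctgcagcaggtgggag
Ldb3: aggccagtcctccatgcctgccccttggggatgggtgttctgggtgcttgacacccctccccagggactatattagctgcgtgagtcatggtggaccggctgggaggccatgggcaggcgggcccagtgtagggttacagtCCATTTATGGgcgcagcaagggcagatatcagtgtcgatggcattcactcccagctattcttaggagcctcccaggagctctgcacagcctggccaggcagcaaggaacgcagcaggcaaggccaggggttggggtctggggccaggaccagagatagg

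Among the regulators of these genes, *Myocd*, the coactivator myocardin, was low but higher in the high cells, at 0.310 against 0.0670 CPM in iWAT_DFAT, 3.05 against 0.746 in eWAT_DFAT, 7.71 against 1.54 in iWAT_SVF and 4.03 against 0.623 in eWAT_SVF. Its relative *Mrtfa* had ratios of 0.34, 0.63, 0.33 and 0.29, *Srf* 0.17, 0.64, 0.56 and 0.85, and *Mrtfb* -0.09, -0.45, -0.24 and -0.43. *Foxs1*, a forkhead factor seen in mural and contractile cells, was at 7.59 against 1.61 CPM in iWAT_DFAT, 72.7 against 30.5 in eWAT_DFAT, 66.6 against 22.9 in iWAT_SVF and 103 against 50.7 in eWAT_SVF. Of the list's 15 factors, 1, 1, 2 and 1 were at least 2-fold higher among the 11, 10, 12 and 11 measured, beside 0.600, 2.30, 1.26 and 2.04% of all genes. Among these factors *Foxs1* alone was so in all 4. With all other cells as comparison its ratio lay below 1 in eWAT_DFAT (0.87), iWAT_SVF (0.98) and eWAT_SVF (0.62), and in eWAT_SVF also under other alternatives.

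Targets of TGF-beta and YAP signalling, which act on contractile genes through tension and growth factors, were higher for some members. *Ccn2*, a matricellular growth factor, was at 97.2 against 27.0 CPM in iWAT_DFAT, 497 against 143 in eWAT_DFAT, 416 against 236 in iWAT_SVF and 515 against 200.1 in eWAT_SVF. *Ankrd1*, a YAP target and muscle ankyrin repeat protein, was at 25.0 against 8.70 CPM in iWAT_DFAT, 429 against 129 in eWAT_DFAT, 300.0 against 66.7 in iWAT_SVF and 411 against 147 in eWAT_SVF. *Thbs1*, a matrix protein that responds to TGF-beta, had ratios of 0.61, 0.88, 0.47 and 0.65. Of 14 measured in all 4 libraries, 8 had an interval above 0 in each (5.32% of all genes), and the list medians were 0.35, 0.69, 0.31 and 0.21. *Tgfbi* had ratios of -0.32, -0.57, -1.09 and -4.78. Its levels were at most 5.13 CPM outside iWAT_DFAT, the interval in eWAT_DFAT reached from -1.20 to 0.01, and the widest difference was 0.183 against 5.04 CPM in eWAT_SVF. *Postn* was at 241 against 518 CPM in iWAT_SVF. Of the 15, 15, 16 and 16 list genes measured, 11, 14, 10 and 10 had an interval above 0 and 1, 0, 6 and 4 one below. The shares of all genes were 22.8, 21.5, 16.0 and 15.8% above and 25.1, 37.0, 45.4 and 54.8% below.

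Integrins, which tie the cell to its matrix, were read beside receptors and channels. *Itga1*, a collagen receptor of smooth muscle, had ratios of 0.83, 2.04, 1.59 and 1.55, and *Itga5*, the fibronectin receptor, 0.17, 0.92, 1.12 and 1.62. *Itga8*, an integrin of vascular muscle and myofibroblasts, was at 1.29 against 0.596 CPM in iWAT_DFAT, 6.25 against 3.22 in eWAT_DFAT, 17.1 against 7.98 in iWAT_SVF and 31.4 against 2.40 in eWAT_SVF. In eWAT_DFAT its ratio was 0.96, but -0.12 once cells were thinned to 5000 UMIs. *Tgfbr3*, the co-receptor betaglycan, was lower throughout, with ratios of -0.38, -1.08, -1.34 and -1.68. *Pdgfrb*, a receptor of mural and stromal cells, had ratios of -0.03, -0.06, 0.17 and -0.10.

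The 3 genes could also mark pericytes, the mural cells of capillaries, so that a list of 12 mural genes was read beside them. *Kcnj8*, *Abcc9*, *Higd1b* and *Vtn*, which define pericytes, were all under 1.2 CPM in both groups of every library. *Rgs5*, their most used marker, was at 0.671 against 0.986 CPM in iWAT_DFAT, 7.40 against 0.870 in eWAT_DFAT, 1.25 against 1.12 in iWAT_SVF and 0.275 against 0.167 in eWAT_SVF. *Mcam*, an adhesion molecule of vessels and stromal cells, was at 2.12 against 1.41 CPM in iWAT_DFAT, 14.9 against 4.32 in eWAT_DFAT, 39.4 against 12.6 in iWAT_SVF and 54.5 against 6.68 in eWAT_SVF. *Cspg4*, the NG2 proteoglycan, was at 3.05 against 0.499 CPM in iWAT_DFAT, 6.85 against 1.40 in eWAT_DFAT, 13.2 against 8.08 in iWAT_SVF and 12.1 against 2.13 in eWAT_SVF. The list summed to 61.0, 58.8, 84.0 and 87.1 CPM in high cells against 89.9, 38.5, 44.1 and 37.8 in low cells. Of its measured genes, 0 of 4, 4 of 8, 1 of 4 and 2 of 5 were at least 2-fold higher, beside 0.600, 2.30, 1.26 and 2.04% of all genes. At least 2-fold lower were 0, 1, 0 and 1 of them, beside 0.442, 3.65, 2.18 and 4.54% of all genes. The list medians were -0.36, 0.87, 0.78 and 0.15, and *Mcam* and *Cspg4* were under 5 CPM in iWAT_DFAT. Cells with at least 3 mural genes detected were 5.22, 8.36, 12.7 and 10.8% of the high cells and 5.56, 3.71, 3.69 and 2.52% of the low cells. Detection rises with depth and the high cells were deeper, and the part of depth in these shares was not tested. With these cells left out, the shares at 1000 or more CPM were 20.36% in iWAT_SVF and 39.37% in eWAT_SVF.

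A striated muscle list held 9 genes, among them *Ckb*, which is not particular to striated muscle. Of these, 2 of 3, 2 of 3, 4 of 5 and 3 of 4 measured were at least 2-fold higher, beside 0.600, 2.30, 1.26 and 2.04% of all genes. In both DFAT libraries the 2 were *Acta1* and *Ckb*. In iWAT_SVF the remaining 1 of the measured striated genes, the light chain *Myl1*, was at 0.0465 against 6.87 CPM. *Acta1*, the actin of skeletal muscle, was at 17.1 against 1.35 CPM in iWAT_DFAT, 106 against 12.8 in eWAT_DFAT, 256 against 70.2 in iWAT_SVF and 399 against 26.1 in eWAT_SVF, with ratios of 3.66, 3.05, 1.87 and 3.93. *Ckb*, the brain-type creatine kinase that smooth muscle also uses, was at 43.0 against 17.8 CPM in iWAT_DFAT, 280.5 against 91.3 in eWAT_DFAT, 265 against 83.1 in iWAT_SVF and 596 against 196 in eWAT_SVF. *Mustn1*, a small nuclear protein of muscle, was at 21.6 against 20.6 CPM in iWAT_DFAT, 64.8 against 32.9 in eWAT_DFAT, 159 against 52.8 in iWAT_SVF and 205 against 105 in eWAT_SVF. Of the high cells, 18.9, 31.4, 33.0 and 34.9% were also in the top 10% by *Mustn1*, *Acta1* and *Ckb*, against 9.14, 4.49, 4.01 and 2.13% of the low cells. The sarcomere genes *Myl1* and *Tnni2* were under 0.3 CPM in the high cells of all 4 libraries. They do not stand for the whole list, of which other genes enter the counts without being named here. In high against low cells the list summed to 84.2 against 41.7, 462 against 143, 701 against 229.5 and 1284 against 363 CPM.

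The stromal list had 11 of 17, 8 of 15, 11 of 15 and 14 of 16 measured genes with an interval below 0, and 4, 7, 3 and 2 with one above. Over all measured genes, 25.1, 37.0, 45.4 and 54.8% had an interval below 0 and 22.8, 21.5, 16.0 and 15.8% one above. The list summed to 9171 against 9436, 4089 against 2777, 8328 against 9943 and 7452 against 9597 CPM, and was thus higher in the high cells of eWAT_DFAT. *Pdgfra*, the receptor that marks adipose stromal cells, was at 170.2 against 255 CPM in iWAT_DFAT, 76.5 against 104 in eWAT_DFAT, 69.8 against 90.6 in iWAT_SVF and 46.6 against 102 in eWAT_SVF, with ratios of -0.58 (-0.63 to -0.53), -0.44 (-0.52 to -0.36), -0.38 (-0.46 to -0.30) and -1.13 (-1.23 to -1.04). A *Pdgfra* UMI was detected in 90.5, 73.8, 70.1 and 62.5% of high cells and 94.1, 79.3, 71.9 and 76.1% of low cells, against 20, 16.3, 12.2 and 9.68% of the cells with endothelial genes. Thinned to 5000 UMIs, the shares were 51.0, 27.1, 27.4 and 17.4% of high cells and 65.4, 35.3, 32.7 and 34.9% of low cells. *Dcn*, encoding the proteoglycan decorin, was at 1085 against 1758 CPM in iWAT_DFAT, 192 against 303 in eWAT_DFAT, 134 against 219 in iWAT_SVF and 189 against 416 in eWAT_SVF.

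Surface markers of adipose progenitors were read next. *Cd34* was at 10.0 against 23.1 CPM in iWAT_DFAT, 2.40 against 7.65 in eWAT_DFAT, 1.95 against 12.3 in iWAT_SVF and 0.961 against 8.83 in eWAT_SVF, and was the 1 gene of the list at least 2-fold lower in all 4 libraries, though its ratio in iWAT_DFAT was -0.87 when cells were ranked without *Cnn1*. *Ly6a* (the antigen Sca-1) had ratios of -0.72, -0.54, -0.81 and -2.03. *Dpp4* and *Pi16*, which mark a progenitor state of the fascia-like interstitium, had negative ratios in each library but were mostly rare, and *Dpp4* in iWAT_DFAT had a ratio of -0.20. *Pi16* was at 9.86 against 26.3 CPM in iWAT_DFAT and *Dpp4* at 1.60 against 16.0 CPM in eWAT_SVF. *Thy1*, a marker of fibroblasts, was higher, with ratios of 0.50, 0.87, 0.47 and 0.55. The medians of the stromal list were -0.23, -0.09, -0.33 and -0.68. At least 2-fold lower were 2 of 17, 1 of 15, 2 of 15 and 6 of 16 measured genes, beside 0.442, 3.65, 2.18 and 4.54% of all genes. Comparing only cells with a *Pdgfra* UMI left 9 of 25, 18 of 29, 15 of 26 and 20 of 30 contractile genes at least 2-fold higher, beside 0.57, 2.09, 1.28 and 2.03% of all genes, a comparison added after the data were seen.

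**Figure D4:**
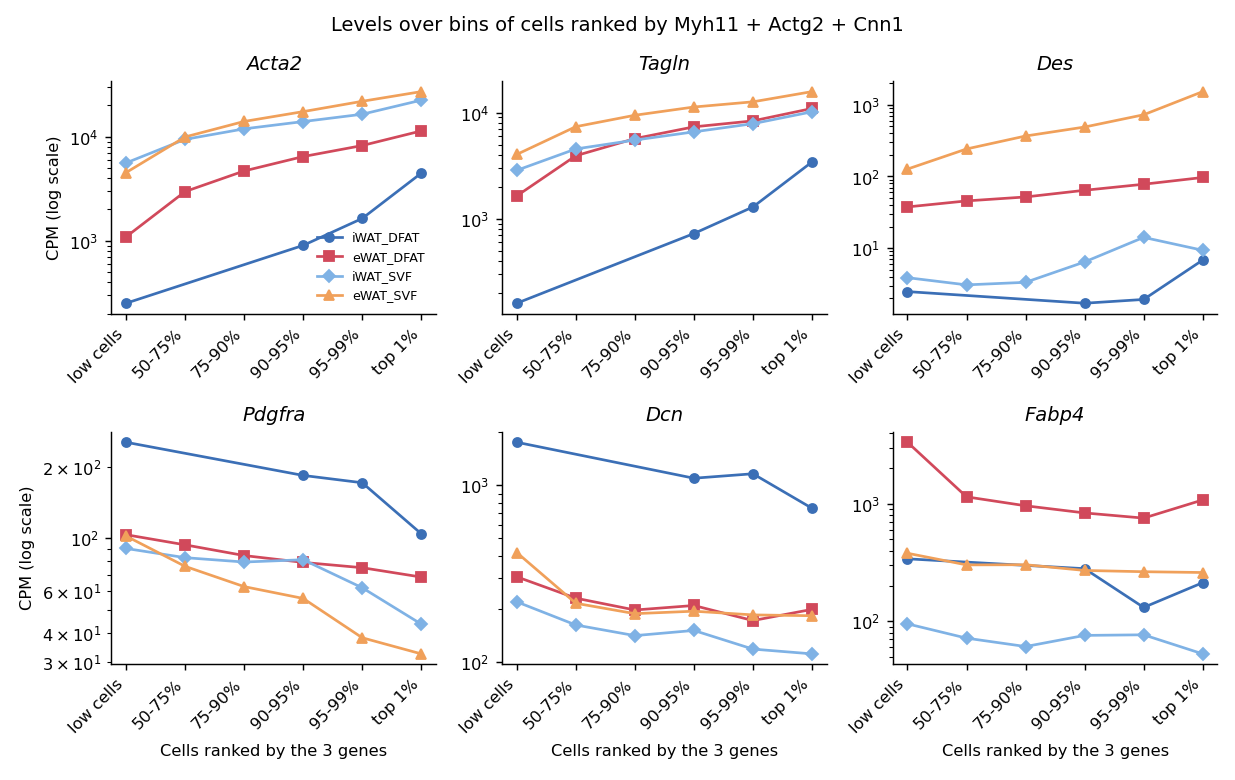
CPM (log scale) of *Acta2*, *Tagln*, *Des*, *Pdgfra*, *Dcn* and *Fabp4* over bins of cells ranked by the 3 selecting genes, from the low cells to the top 1%, by library (iWAT_DFAT has no cells in 2 of the bins). *Acta2* goes from 4526 to 27164 CPM in eWAT_SVF, and *Pdgfra* from 102 to 32.5 CPM, while *Fabp4* in eWAT_DFAT goes from 756 up to 1079 CPM between the last bins.

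Levels also differed within the high cells. In eWAT_SVF, *Acta2* was at 4526, 9965, 14039, 17450.0, 21929 and 27164 CPM from the low cells through 4 bins up to the top 1%. *Des* was at 127, 242, 367, 489, 725 and 1525 CPM over the same bins, and *Pdgfra* at 102, 76.2, 62.5, 55.7, 38.0 and 32.5 CPM. In iWAT_DFAT, where the middle bins hold no cells, *Acta2* was at 251, 904, 1640.3 and 4469.6 CPM and *Tagln* at 160.4, 727, 1293 and 3429 CPM. Other genes had no single direction over these bins. *Fabp4* was at 340.2, 281, 131 and 213 CPM in iWAT_DFAT and 3345, 1147, 963, 837, 756 and 1079 CPM in eWAT_DFAT, *Dcn* at 303, 229, 196, 208, 171 and 198 CPM in eWAT_DFAT, and *Des* at 3.87, 3.07, 3.34, 6.42, 14.1 and 9.34 CPM in iWAT_SVF. The 76 cells of the top 1% of iWAT_DFAT thus held less *Acta2* than the low cells of iWAT_SVF.

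Of the matrix list, 15 of 17, 14 of 17, 7 of 18 and 6 of 18 measured genes had an interval above 0, and 2, 3, 8 and 11 one below, against 22.8, 21.5, 16.0 and 15.8% above and 25.1, 37.0, 45.4 and 54.8% below over all genes. *Col1a1*, the main chain of collagen I, was at 1996 against 1493 CPM in iWAT_DFAT, 1088 against 506 in eWAT_DFAT, 2403 against 2713 in iWAT_SVF and 2091 against 2190.3 in eWAT_SVF, and the ratio of eWAT_SVF (-0.07) becomes 0.10 when centred on all genes. *Timp3*, an inhibitor of matrix proteases, was at 147 against 45.8 CPM in iWAT_DFAT, 131 against 40.003 in eWAT_DFAT, 1278 against 1252 in iWAT_SVF and 396 against 442 in eWAT_SVF. It was thus more than 3-fold higher in the high cells of both DFAT libraries, and close to equal in both SVF libraries, with ratios of 1.68, 1.72, 0.03 and -0.16. The basement membrane chains *Col4a1* and *Col4a2* were higher in all 4, with ratios of 0.25, 0.45, 0.63 and 0.42, and of 0.31, 0.52, 0.59 and 0.36. The list medians were 0.32, 0.45, -0.08 and -0.13, and the SVF values become 0.03 and 0.04 when centred.

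The adipogenic list had the most genes with lower levels in eWAT_DFAT. There 12 of 14 measured genes were at least 2-fold lower, against 2 of 12 in iWAT_DFAT, 0 of 9 in iWAT_SVF and 4 of 10 in eWAT_SVF. The share of all genes so lower was 3.65% in eWAT_DFAT, 0.442% in iWAT_DFAT, 2.18% in iWAT_SVF and 4.54% in eWAT_SVF. The medians of the list, in the usual order, were -0.55, -1.74, -0.28 and -0.95. *Fabp4*, the fatty acid binding protein of adipocytes, was at 213 against 340.2 CPM in iWAT_DFAT, 829 against 3345 in eWAT_DFAT, 73.9 against 95.1 in iWAT_SVF and 268 against 379 in eWAT_SVF. Its ratio in iWAT_SVF was -0.36, and 0.12 when only cells with a *Pdgfra* UMI were compared. *Pparg*, the master regulator of adipogenesis, was at 24.0 against 47.2 CPM in iWAT_DFAT, 33.5 against 100.2 in eWAT_DFAT, 14.9 against 19.0 in iWAT_SVF and 3.98 against 9.34 in eWAT_SVF. *Lpl*, which releases fatty acids from lipoproteins, was at 295 against 509 CPM in iWAT_DFAT, 194 against 570.4 in eWAT_DFAT, 111 against 153 in iWAT_SVF and 142 against 385 in eWAT_SVF. *Adipoq*, encoding adiponectin, was at 0.650 against 22.2 CPM in eWAT_DFAT but at 1.76 against 1.16 CPM in iWAT_DFAT, and *Lep* had no UMI in any high cell.

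Of the inflammatory list, 15 of 16, 15 of 15, 6 of 12 and 15 of 16 measured genes had an interval below 0, beside 25.1, 37.0, 45.4 and 54.8% of all genes. Of 12 measured in all libraries, 4 had one in each, against 10.4% of all genes. *Saa3*, an acute phase protein, was at 1528 against 3302 CPM in iWAT_DFAT, 202 against 1096 in eWAT_DFAT, 0.139 against 0.608 in iWAT_SVF and 3.16 against 169 in eWAT_SVF. It was rare in iWAT_SVF, and elsewhere 3.73, 4.18 and 4.90% of the high cells of iWAT_DFAT, eWAT_DFAT and eWAT_SVF were in the top 10% by *Saa3* (635 cells with any *Saa3* UMI in eWAT_SVF), against 10.6, 13.9 and 13.2% of the low cells. *Lcn2*, the iron-trapping lipocalin, was at 78.5 against 191 CPM in iWAT_DFAT and 55.4 against 226 CPM in eWAT_DFAT. The osteopontin gene *Spp1* had ratios of -0.20, -1.67, -1.31 and -1.04, and in eWAT_SVF -0.22 among cells with a *Pdgfra* UMI. The chemokines *Ccl2* and *Ccl7* had ratios of -0.15, -0.49, 0.09 and -1.54, and of -0.13, -0.17, 0.58 and -0.60. At least 2-fold lower were 2 of 16, 5 of 15, 3 of 12 and 11 of 16 measured genes, beside 0.442, 3.65, 2.18 and 4.54% of all genes. *Ptgs2*, the inducible cyclooxygenase, was higher in eWAT_SVF at 54.1 against 24.9 CPM. The medians of the inflammatory list were -0.33, -0.86, -0.05 and -1.19, of which that of iWAT_SVF becomes 0.07 when centred.

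Of 15 cell cycle genes, none was 2-fold higher or lower in any library, and the list medians were 0.22, 0.04, -0.27 and -0.02. Among all genes, 0.600, 2.30, 1.26 and 2.04% were at least 2-fold higher and 0.442, 3.65, 2.18 and 4.54% at least 2-fold lower. In iWAT_DFAT 12 of the 15 had an interval above 0, as did 4, 0 and 3 in the other libraries, against 22.8, 21.5, 16.0 and 15.8% of all genes. In iWAT_SVF 13 of the 15 had an interval below 0, as did 1 in iWAT_DFAT, 5 in eWAT_DFAT and 5 in eWAT_SVF, against 45.4, 25.1, 37.0 and 54.8% of all genes. *Top2a*, a topoisomerase of dividing cells, was at 177 against 153 CPM in iWAT_DFAT, 124 against 115 in eWAT_DFAT, 146 against 150.4 in iWAT_SVF and 95.9 against 97.3 in eWAT_SVF, and the negative ratios of both SVF libraries change sign when centred. Of the high cells, 9.39, 6.19, 6.74 and 8.46% were in the top 10% by the cell cycle list, against 10.1, 10.7, 10.5 and 10.6% of the low cells.

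Genes of other cell types were also read in high and low cells. In eWAT_SVF, 9 of 10 mesothelial genes were at least 2-fold lower in the high cells, beside 4.54% of all genes. The mesothelial list summed to 51.5 against 316 CPM there, with the keratin *Krt8* at 1.24 against 39.3 CPM and the uroplakin *Upk1b* at 3.85 against 62.5 CPM. In iWAT_DFAT, eWAT_DFAT and iWAT_SVF it summed to 11.7 against 8.31, 33.3 against 58.3 and 98.3 against 63.3 CPM. There 0 of 1, 3 of 5 and 0 of 1 measured genes were at least 2-fold lower, beside 0.442, 3.65 and 2.18% of all genes. Endothelial genes summed to 19.7 against 23.8, 53.9 against 75.5, 14.8 against 67.7 and 49.9 against 155 CPM. Immune genes summed to 28.2 against 114 CPM in eWAT_SVF and 20.3 against 20.8, 14.9 against 21.6 and 20.9 against 22.3 CPM in the other 3. Neural genes summed to 9.62 against 62.8 CPM in iWAT_SVF and to 10.1 CPM or less in either group elsewhere. The part of such cell types in the lower genes of the high cells was not tested.

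**Figure D5:**
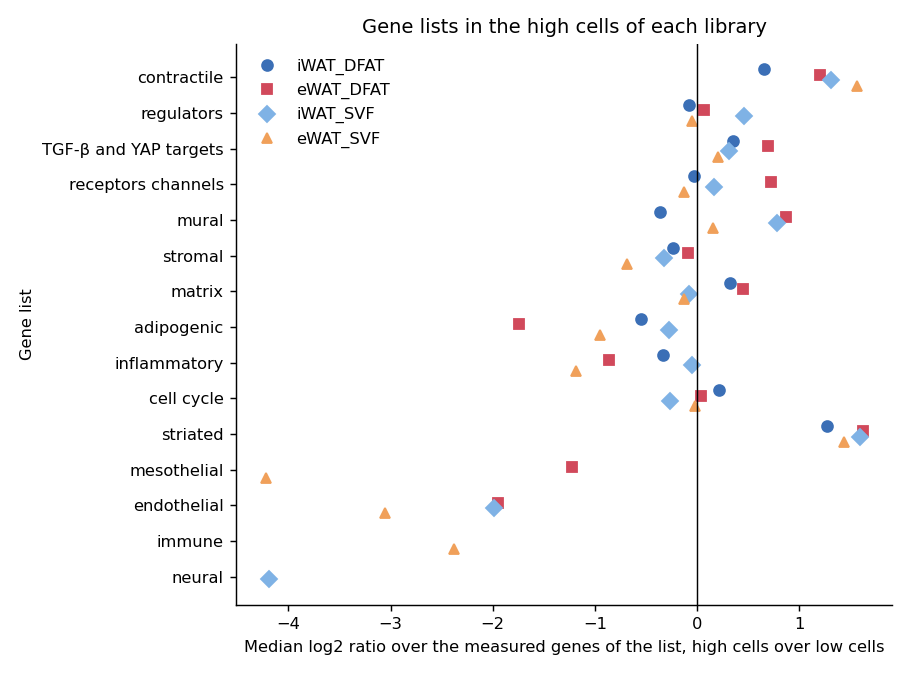
Median log2 ratio of high to low cells (horizontal axis) over the measured genes of each list with at least 3 of them (vertical axis), by library. The contractile list lies at 0.66 to 1.56, the adipogenic list at -1.74 to -0.28, and the matrix list on either side of 0, where its SVF values of -0.08 and -0.13 turn positive when centred.

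By a rule that took the largest ratios among genes at 20 CPM or more, the 10 genes highest in all 4 libraries included *Lmod1*, *Acta2*, *Ankrd1*, *Myl9*, *Tagln*, *Nexn*, *Mylk*, *Crispld2* and *Ckb*. *Crispld2*, a secreted protein of the matrix, was the only one of the 10 in no list. It was at 43.2 against 17.7 CPM in iWAT_DFAT, 37.0 against 9.52 in eWAT_DFAT, 39.7 against 15.8 in iWAT_SVF and 75.1 against 18.4 in eWAT_SVF. The genes lowest in all 4 were *Gas1*, *Zfp36l1*, *Dcn*, *Gfpt2*, *Mgst1*, *Nfia*, *Pnrc1*, *Sulf2*, *Mt1* and *Lgals3*. *Gas1*, a growth arrest gene that acts in hedgehog signalling, was at 226 against 384 CPM in iWAT_DFAT, 17.2 against 49.2 in eWAT_DFAT, 27.6 against 124 in iWAT_SVF and 29.2 against 111 in eWAT_SVF. *Mt1*, a metal-binding metallothionein, was at 692 against 1021 CPM in iWAT_DFAT, 168 against 433 in eWAT_DFAT, 169.6 against 274 in iWAT_SVF and 93.02 against 271 in eWAT_SVF.

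The leading genes of single libraries differed. In iWAT_DFAT the highest were *Tagln*, *Acta2*, *Lmod1*, *Myl9* and the chemokine *Cxcl14*, the last at 236 against 49.4 CPM. In eWAT_DFAT they were *Igfbp2*, *Ramp1*, *Ifi27l2b*, *Fhl1* and *Slc1a6*, with *Igfbp2*, a binding protein of insulin-like growth factors, at 91.5 against 3.19 CPM and *Ramp1*, a partner of the calcitonin-like receptor, at 39.7 against 2.16 CPM. In iWAT_SVF they were *Ppp1r14a*, *Sh3bgr*, *Fbxl22*, *Igfbp2* and *Mylk*, with *Ppp1r14a*, the inhibitor of myosin phosphatase that is typical of smooth muscle, at 105 against 12.8 CPM. In eWAT_SVF they were *Acta1*, *Itga8*, *Myom1*, *Fbxl22* and *Mcam*, with the sarcomere protein *Myom1* at 24.2 against 2.23 CPM. *Igfbp2* and *Fbxl22* each led in 2 of the libraries.

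The lowest genes of single libraries were *Negr1*, *Pi16*, *Prl2c3*, *Lcn2* and *Prg4* in iWAT_DFAT. In eWAT_DFAT they were *Cfd*, *Car3*, *Adipoq*, *Prl2c5* and *Slpi*, of which *Cfd*, the adipocyte protease adipsin, was at 0.400 against 42.6 CPM and *Car3*, a carbonic anhydrase of fat, at 1.0496 against 57.8 CPM. In iWAT_DFAT both went the other way, with *Cfd* at 9.81 against 2.53 CPM and *Car3* at 14.1 against 2.87 CPM. The genes *Prl2c3* and *Prl2c5* have near-identical copies, so their counts are uncertain. In iWAT_SVF the lowest were *Emcn*, *Edil3*, *Csmd1*, *Lgr5* and *Dkk2*, with the Wnt-related receptor *Lgr5* at 4.27 against 68.8 CPM and the Wnt inhibitor *Dkk2* at 7.57 against 107 CPM. In eWAT_SVF they were *Saa3*, *Pkhd1l1*, *Lrrn4*, *Krt8* and *Slpi*, the last an inhibitor of proteases, at 8.42 against 255 CPM.

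Other high ranges overlapped with the high cells to different degrees. Of the high cells, 5.22, 11.1, 15.9 and 23.0% were in the top 10% by the mural list, against 10.5, 11.7, 8.84 and 8.12% of the low cells. By the stromal list the shares were 6.26, 14.1, 2.70 and 1.63%, against 10.4, 8.79, 13.9 and 15.3% of the low cells. By the adipogenic list they were 4.17, 2.32, 5.12 and 1.48%, against 10.6, 16.1, 12.6 and 16.2%. The ranges by these scores are as large as the high cells except in iWAT_DFAT, where each held 763 cells.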

How the data were processed

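The deposited files hold raw counts per gene and barcode, as UMIs that the authors obtained with Cell Ranger on mm10 from 10x Genomics 3′ libraries, with introns included. File headers name version 7.1.0 in 3 libraries and 4 in iWAT_SVF, and the submitters' processing notes 7.0.0. Whether introns were counted alike in iWAT_SVF is thus unsure, and comparisons with it may cross versions. The ambient RNA and doublet corrections of the study were not applied to these counts. Barcodes were filtered as given above, ranked by (*Myh11* + *Actg2* + *Cnn1*) per total UMIs, and summed over high and low cells of each library. Levels are CPM of the summed counts. Ratios have exact conditional binomial intervals, levels Poisson and shares Clopper-Pearson intervals, which cover counting error only. With 1 library per condition, and cells chosen on the contrast described, no test was made. Genes at 5 CPM or more in either group were counted as measured. The cells, gene lists and fold limit of 2 were chosen with earlier results of these data known. Named genes are the 3 selecting genes, the list genes, the 10 in each direction with the largest smallest log2 ratio over the libraries, and 5 in each direction per library, at 20 CPM or more. Gene positions are from GENCODE on mm10. Some genes that enter the counts are not reported here by name. The steps were tested on simulated counts. Doublet scores were made with Scrublet in scanpy 1.11.5, figures drawn with matplotlib 3.10.9, and the rest computed with pandas 2.3.3, scipy 1.17.1 and numpy 2.4.6 under Python 3.11.15. Alternatives changed the UMI minimum, the share of cells taken, the depth, the selecting genes, the comparison cells, the centring, the CPM minimum, and the treatment of doublets, cells with mural genes and ties.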

Additional observations from a re-analysis of the deposited data

Results flagged for a closer look

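For 8 genes of the matrix and TGF-beta lists, the ratio of high to low cells was above 0 in both DFAT libraries and below 0 in both SVF libraries, with each counting interval on that side of 0. All 214 list genes were looked at, of which 108 were at 20 CPM or more in the high or low cells of each library, so the 8 are 7.41% of these. Among all 5359 genes at that level, 72 (1.34%) had the same pattern and 23 (0.429%) its opposite. The difference between cultures was not tested, since each group is 1 library. The ratios are also not alike in their cells. In iWAT_DFAT the low cells are all other cells, and 56.5% of the high cells were chosen on 1 UMI. The mean log2 ratio of the DFAT libraries minus that of the SVF libraries was 1.07 for *Col8a1*, 0.883 for *Col1a1*, 0.877 for *Col1a2*, 0.870 for *Lox*, 0.807 for *Col5a1*, 0.724 for *Col5a2*, 0.557 for *Fn1* and 0.350 for *Fbln2*. The 4 ratios were 0.03, 0.98, -0.22 and -0.51 for *Lox*, 0.23, 0.81, -0.33 and -0.39 for *Col1a2*, 0.42, 1.10, -0.18 and -0.07 for *Col1a1*, 0.44, 0.85, -0.21 and -0.12 for *Col5a1*, 0.35, 0.79, -0.16 and -0.15 for *Col5a2*, 0.76, 0.97, -0.36 and -0.07 for *Col8a1*, 0.34, 0.24, -0.18 and -0.36 for *Fn1* and 0.03, 0.15, -0.17 and -0.34 for *Fbln2*, so that the ratio of eWAT_DFAT was the larger of the DFAT ratios for all but *Fn1*, and that of *Lox* in iWAT_DFAT was close to 0. Of these, *Col1a1*, *Col5a1*, *Col5a2* and *Col8a1* in eWAT_SVF turn positive when centred on the median of all genes, and *Lox*, *Col1a2*, *Fbln2* and *Fn1* keep opposite signs.

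Barcodes above the limit of 7500 genes or 75000 UMIs were used in no comparison. These 270, 316, 429 and 409 barcodes held the 3 selecting genes at 13.05 CPM in iWAT_DFAT, 239.8 CPM in eWAT_DFAT, 860.9 CPM in iWAT_SVF and 1819 CPM in eWAT_SVF. All kept cells were at 10.4, 257, 725 and 1469 CPM. The left-out barcodes were thus somewhat lower in eWAT_DFAT and higher in the other libraries, with every counting interval apart from the level of the kept cells.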

How the results depend on the processing

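No paired analysis was possible because each group is 1 library and the labels give no replicate numbers. Of 61 contractile counts under alternatives, 59 lay within 1.5 times the value reported. Some of these could not differ. In iWAT_DFAT, taking the top 20% or all other cells as comparison gives the same high and low cells as the main choice. With all other cells as comparison, which include the ranks between, the count was 12 in eWAT_DFAT and 8 in iWAT_SVF, beside 1.28 and 0.755% of all genes. In eWAT_SVF it was 14, beside 1.13% of all genes, which lay within 1.5 times the value reported. The share of cells at 1000 or more CPM was 7.874% in eWAT_DFAT, 24.87% in iWAT_SVF and 43.11% in eWAT_SVF after thinning. It was 20.36% in iWAT_SVF and 39.37% in eWAT_SVF with cells of at least 3 detected mural genes left out. The cause was not tested. Of 1159 ratios of 19 genes, 510 lay outside the reported counting interval, and none that was at least 2-fold changed sign. Smaller ratios did change sign in at least 1 library for *Des* (-0.39 to 1.23 in iWAT_DFAT), *Mcam* (-0.05 in iWAT_DFAT without cells of at least 3 detected mural genes), *Itga8*, *Timp3*, *Fabp4*, *Col1a1* and *Top2a*. *Mcam* is itself in the mural list that chose the cells left out. Counts over all genes moved more. Genes at least 2-fold higher were 28 to 200 in iWAT_DFAT (61 reported), 128 to 302 in eWAT_DFAT (232), 75 to 158 in iWAT_SVF (126) and 112 to 262 in eWAT_SVF (206), and those lower 19 to 358 (45), 161 to 452 (369), 70 to 288 (219) and 176 to 724 (458). Without a CPM minimum, 23.6, 20.1, 19.1 and 20.1% of all genes were higher. The share of higher among these genes was 57.5, 38.6, 36.5 and 31%, against 35.8, 28.6, 29.2 and 23.3% after thinning and 86.7, 70.1, 72.1 and 67.0% without a CPM minimum. It was 59.6, 47.7, 53.3 and 42.1% at a 20 CPM minimum, and 65.4% in iWAT_DFAT with ties filled. Centring made it 45.5% in iWAT_SVF and 42.2% in eWAT_SVF, where 262 were higher and 359 lower. Of the high cells of iWAT_DFAT, 56.5% were chosen on 1 UMI of the 3 genes, at a median of 22111 UMIs per cell in that library against 24930.0 to 27617 in the others.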

Other observations

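Of 9214 genes measured in all 4 libraries, 20 were at least 2-fold higher in the high cells of each, and 7 of these were in no list. They are named after their values were seen. *Dmd*, encoding dystrophin, which links the cytoskeleton to the matrix in muscle, was at 10.7 against 2.95 CPM in iWAT_DFAT, 82.6 against 13.9 in eWAT_DFAT, 210.4 against 57.8 in iWAT_SVF and 137 against 25.0 in eWAT_SVF. *Fhl1*, a LIM protein of muscle, was at 8.57 against 1.45 CPM in iWAT_DFAT, 165 against 12.9 in eWAT_DFAT, 185 against 45.6 in iWAT_SVF and 361 against 60.2 in eWAT_SVF. Both were far lower in iWAT_DFAT than in the other libraries. *Npnt*, the ligand of the integrin encoded by *Itga8*, was at 5.99 against 2.73 CPM in iWAT_DFAT, 155 against 31.5 in eWAT_DFAT, 30.4 against 9.36 in iWAT_SVF and 86.1 against 14.4 in eWAT_SVF. *Ntn4*, a netrin of basement membranes, was at 21.2 against 9.30 CPM in iWAT_DFAT, 43.6 against 6.86 in eWAT_DFAT, 61.0 against 22.0 in iWAT_SVF and 37.5 against 12.8 in eWAT_SVF. The calcium-permeable channel *Trpv2* was at 6.81 against 2.39 CPM in iWAT_DFAT, 25.2 against 5.15 in eWAT_DFAT, 33.4 against 9.10 in iWAT_SVF and 39.7 against 11.4 in eWAT_SVF, and *Cd59a*, an inhibitor of complement, at 6.25 against 1.75 CPM in iWAT_DFAT, 40.7 against 8.20 in eWAT_DFAT, 76.7 against 23.0 in iWAT_SVF and 73.2 against 18.1 in eWAT_SVF. *Crispld2* was the last of the 7. In the other direction, *Igfbp5*, a binding protein of insulin-like growth factors, was at 5.27 against 11.2 CPM in iWAT_DFAT, 2.50 against 15.5 in eWAT_DFAT, 14.2 against 42.1 in iWAT_SVF and 0.504 against 6.18 in eWAT_SVF, and with *Cd34* was the only gene at least 2-fold lower in all 4. *Cd34* passed this limit in iWAT_DFAT at -1.21, but not when cells were ranked without *Cnn1* (-0.87).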
